A study of Mus musculus with 4 samples.

Results

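The data compare the RNA of wild-type CD4+ T cells after 3 days of stimulation through the T-cell receptor and CD28 with that of the same kind of cells before it. Of the 4 libraries of the series, 2 were used for the comparison, 1 of WT cells on day 3 and 1 of WT cells on day 0. The cells came from the spleen of C57BL/6J mice of 10 to 12 weeks whose Cic alleles were floxed on both chromosomes (Cic f/f) and which carried no Cre, so that CIC, a transcriptional repressor, was intact. On day 3 the cells had been cultured on plates coated with antibodies to CD3 and to CD28 at 2 µg/ml each, and on day 0 they had been sorted and left without stimulation. The other 2 libraries, of Cic f/f mice with Cd4-Cre (cKO) on day 3 and day 0, were used beside the WT pair only. Cre driven by the Cd4 promoter acts in all T cells that pass through the CD4-expressing stage of the thymus, CD8+ T cells included. All 23906 loci that carry a gene name, of 31171 loci in the table, were taken, and these hold 23339 names.

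A resting T cell is small, makes little RNA and protein, and circulates between blood and lymphoid organs. When its antigen receptor and the costimulatory receptor CD28 are engaged together, kinases such as LCK and ZAP70 start calcium, RAS and NF-kappaB signals, the cell makes interleukin 2 and the high-affinity receptor for it, and within days it enlarges, switches to aerobic glycolysis and divides. Plate-bound antibodies to CD3 and CD28 are the standard stand-in for antigen and an antigen-presenting cell.

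Expression was measured as FPKM, the fragments counted per kilobase of transcript and scaled to the total of the library. Every value is therefore relative to its own library, and the amount of RNA per cell was not measured. From the steps between the lowest values, 1 fragment per kilobase was worth 0.114 FPKM on day 3 and 0.131 FPKM on day 0. An FPKM of 1 in a transcript of 2 kb then rested on about 17.5 fragments on day 3 (95% exact Poisson interval 10.7 to 28.4) and on about 15.2 on day 0 (8.4 to 24.7), and these intervals cover counting error only. A 2 kb transcript without any fragment could have up to 0.17 FPKM on day 3 and 0.20 FPKM on day 0. There was 1 library a time, so no difference below has a replicate check or a p-value, and mice, culture, library and time cannot be told apart. Xist, transcribed in females, had 68.3 FPKM on day 3 and 47.6 FPKM on day 0, and the Y-linked Ddx3y had 10.0 FPKM on day 3 and 13.9 FPKM on day 0, so that each library held RNA of both sexes.

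The label of CD4+ T cells was checked against marker genes. None of the 12 measured markers of T cells passed the size threshold given below, and their summed level was 1755 FPKM on day 3 and 1556 FPKM on day 0. Cd4 itself had 86.3 FPKM on day 3 and 135 FPKM on day 0, and Cd3e, a chain of the CD3 complex, had 74.5 FPKM on day 3 and 113 FPKM on day 0. The day 0 cells are named naïve in the sample labels but with a CD44hi gate, which is that of effector or memory cells, while the study's methods give CD44lo. Cd44 had 26.0 FPKM on day 3 and 19.2 FPKM on day 0. The 13 markers of naïve T cells summed to 1067 FPKM on day 3 and 1716 FPKM on day 0. The 15 markers of effector and memory T cells summed to 1020 FPKM on day 3 and 256 FPKM on day 0. Which gate was used was not tested. The day 0 library also held transcripts of other cells. The 22 markers of macrophages and monocytes summed to 14.3 FPKM on day 3, against 393 FPKM on day 0, and all 22 were lower on day 3, 6 of them listed at 0. The 14 markers of red blood cells and their precursors that were found summed to 36.4 FPKM on day 3, against 493 FPKM on day 0. Markers of neutrophils summed to 1.78 FPKM on day 3, against 69.4 FPKM on day 0, and of NK cells to 31.3 FPKM on day 3, against 60.6 FPKM on day 0. In bulk RNA, fewer cells of a type and less RNA per cell cannot be told apart.

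**Figure D1:**
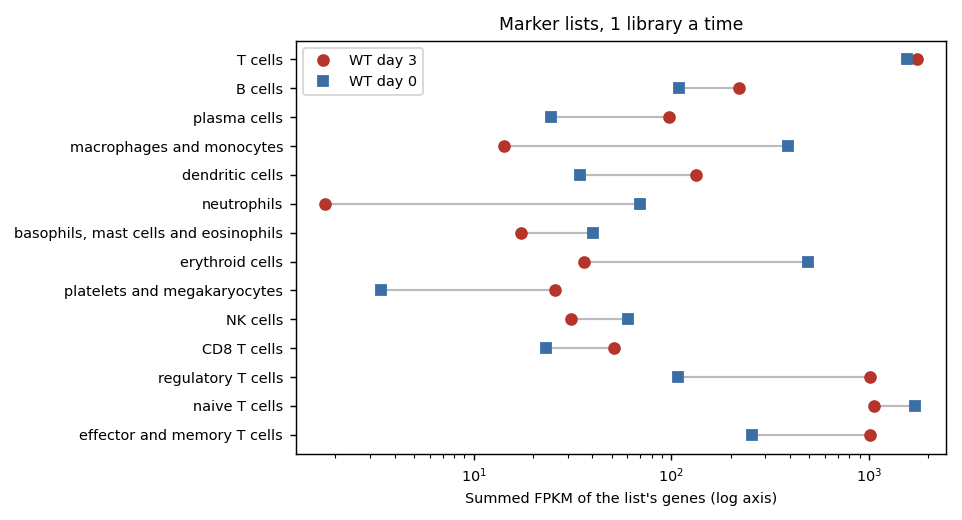
Summed FPKM of each marker list (log axis) in the WT day 3 library (circles) and the WT day 0 library (squares), 1 library a time. T-cell markers sit together near 1755 FPKM on day 3 and 1556 FPKM on day 0, while macrophage, neutrophil and red cell lists are far lower on day 3 and the regulatory T-cell list, which holds Il2ra and Tnfrsf18, is far higher.

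Names with 1 FPKM or more on day 3, on day 0 or at both times were counted as measured, and there were 11440. It was called higher or lower on day 3 where log2((day 3 FPKM + 0.1)/(day 0 FPKM + 0.1)), given below as the log2 ratio, passed 1.5 in either direction. By this rule 2173 genes were higher on day 3 (19.0% of those measured) and 1011 were lower (8.84%). The ratio was over 3 for 563 genes and under -3 for 307. The median ratio of all measured genes was 0.40, and the middle 90% lay between -2.18 and 2.98. Centred on that median, 1436 genes were higher and 1444 lower, and centred on 16 reference genes, whose median was 0.90, the numbers were 877 higher and 2357 lower. Levels are therefore relative to a library whose scale is not fixed, and each list median below is to be read against 0.40. At FPKM 1 the number of genes detected hardly differed between the times, with 10608 on day 3 and 10685 on day 0, of which 9853 were shared.

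**Figure D2:**
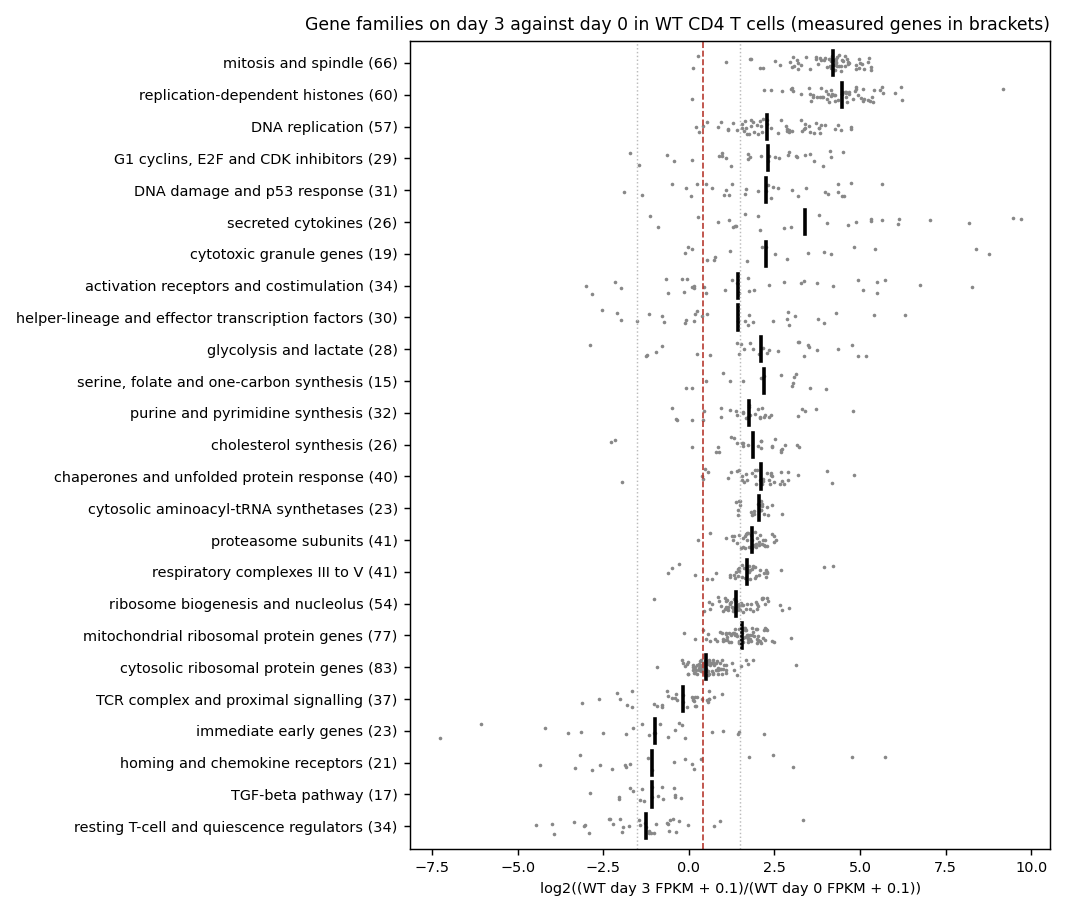
Log2 ratio of WT day 3 to WT day 0 for the measured genes of 25 lists (points, jittered in height), with the list median (black bar), the median of all measured genes at 0.40 (dashed line) and the size threshold of 1.5 on either side (dotted lines). Mitosis and histone genes sit furthest to the right, with medians of 4.20 and 4.47, and the lists of resting T-cell regulators, the TGF-beta pathway and homing receptors furthest to the left.

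Receptors that T cells display after activation are given first. Of 34 measured genes of activation receptors and costimulation, 16 were higher on day 3 and 4 lower, with a median of 1.44. Il2ra, the α chain that completes the high-affinity interleukin 2 receptor (chr2:11642761-11693194, GRCm38), had 508 FPKM on day 3, against 4.63 FPKM on day 0, a log2 ratio of 6.75. The largest ratio of the list was that of Tnfrsf8, which encodes CD30, with 43.7 FPKM on day 3 and 0.0408 FPKM on day 0 (8.28). Several costimulatory members of the TNF receptor superfamily stood together. Tnfrsf4, which encodes OX40, had 317 FPKM on day 3 and 5.90 FPKM on day 0 (5.72). Tnfrsf9, which encodes 4-1BB, had 166 FPKM on day 3 and 4.75 FPKM on day 0 (5.10). Tnfrsf18, which encodes GITR, had 322 FPKM on day 3 and 24.2 FPKM on day 0 (3.73). The inhibitory receptor genes Havcr2, Lag3, Pdcd1 and Ctla4 were among the 16. Havcr2, which encodes TIM-3, had 16.4 FPKM on day 3 and 0.263 FPKM on day 0 (5.51). Lag3, a CD4-like ligand of MHC class II, had 40.0 FPKM on day 3 and 0.793 FPKM on day 0 (5.49). Pdcd1, which encodes PD-1, had 10.5 FPKM on day 3 and 1.46 FPKM on day 0 (2.77). Ctla4, a competitor of CD28 for its ligands, had 127 FPKM on day 3 and 34.4 FPKM on day 0 (1.89). The transferrin receptor Tfrc, through which dividing cells take up iron, had 190 FPKM on day 3 and 19.4 FPKM on day 0 (3.28). Icos, the inducible relative of CD28, had 39.8 FPKM on day 3 and 14.2 FPKM on day 0, a ratio of 1.48 just under the threshold, and Cd28 itself had 59.0 FPKM on day 3 and 89.4 FPKM on day 0 (-0.60).

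Some activation markers were lower. Cd69, an early marker that holds T cells in tissue, had 35.2 FPKM on day 3, against 140 FPKM on day 0 (-1.99). Cd40lg, the ligand through which helper T cells act on B cells, had 6.15 FPKM on day 3 and 27.8 FPKM on day 0 (-2.16). The other 2 lower members were Cd86, a ligand of CD28, with 1.15 FPKM on day 3 and 9.79 FPKM on day 0, and Nt5e, the ecto-enzyme CD73, with 1.03 FPKM on day 3 and 8.0 FPKM on day 0. Cd86 is also expressed by macrophages, whose markers were lower on day 3 by a list median of -5.27, and the part of these cells in the value was not tested.

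Cytokines of several helper lineages were present together on day 3. Of 26 measured secreted cytokines, 18 were higher and none lower, with a median of 3.39, and 7 of the 28 listed were at 0 on day 0. Il4 and Il13, type 2 cytokines encoded side by side on chromosome 11, had 70.7 and 63.9 FPKM on day 3, against a listed 0 and 0.122 FPKM on day 0. Il24, of the interleukin 10 family, had 83.8 FPKM on day 3 and was listed at 0 on day 0. Csf2, the growth factor GM-CSF, had 50.9 FPKM on day 3 and 0.292 FPKM on day 0 (7.03), and Lif, a member of the interleukin 6 family, had 29.8 FPKM on day 3 and 0.330 FPKM on day 0 (6.12). Il10, an anti-inflammatory cytokine, had 45.3 FPKM on day 3 and 1.70 FPKM on day 0 (4.65). Ifng, the type 1 cytokine interferon γ, had 35.3 FPKM on day 3 and 5.08 FPKM on day 0 (2.77). Il17a, the type 17 cytokine, had 4.91 FPKM on day 3 and was listed at 0 on day 0. Il2, the growth factor made early in activation, had 7.83 FPKM on day 3 and 0.168 FPKM on day 0 (4.89), so its level on day 3 was far under that of its receptor chain Il2ra. Tnf had 22.4 FPKM on day 3 and 9.15 FPKM on day 0 (1.28). The only members with a ratio below 0 were Ltb, the lymphotoxin β that shapes lymphoid organs, with 60.3 FPKM on day 3 and 114 FPKM on day 0, and Il16, with 22.9 FPKM on day 3 and 50.1 FPKM on day 0. Of 10 measured chemokines, 6 were higher, among them Ccl22, a ligand of CCR4, at 13.2 FPKM on day 3 and listed at 0 on day 0, and Ccl3 and Ccl4, which attract effector T cells and macrophages, at 57.1 and 45.5 FPKM on day 3 and 10.4 and 5.62 FPKM on day 0.

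**Figure D3:**
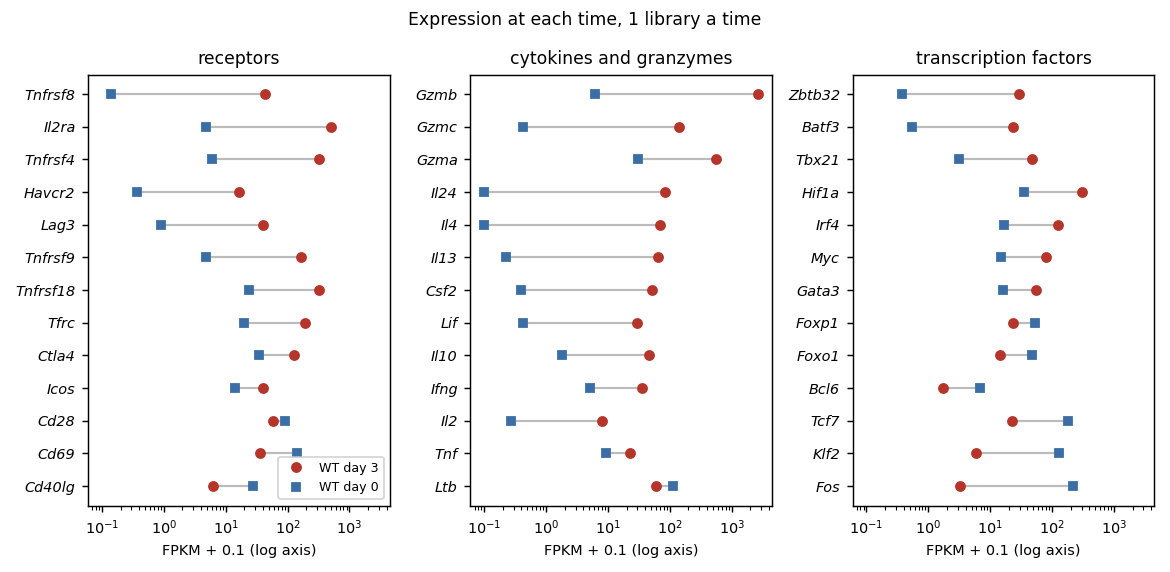
FPKM + 0.1 (log axis) of selected receptors, cytokines and granzymes, and transcription factors in the WT day 3 library (circles) and the WT day 0 library (squares), 1 library a time. Gzmb reaches 2712 FPKM on day 3, Il4 and Il24 are listed at 0 on day 0, and Cd69, Cd40lg, Tcf7, Klf2 and Fos lie lower on day 3.

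Of 19 measured genes of cytotoxic granules, better known from CD8+ T cells and NK cells, 12 were higher on day 3 and none lower (median 2.26). Gzmb, the granule protease granzyme B (chr14:56258858-56262260), had 2712 FPKM on day 3, against 6.13 FPKM on day 0 (8.77). Its gain in FPKM was the third largest among names that hold no small RNA. Gzmc had 143 FPKM on day 3 and 0.328 FPKM on day 0 (8.39). Gzma had 550 FPKM on day 3 and 31.0 FPKM on day 0 (4.14). Prf1, the pore-forming protein perforin, had 29.8 FPKM on day 3 and 6.15 FPKM on day 0 (2.26). Serpinb9 and Serpinb6b, inhibitors of granule proteases, had 51.1 and 63.0 FPKM on day 3 and 6.91 and 5.56 FPKM on day 0. The 5 markers of CD8+ T cells summed to 51.3 FPKM on day 3 and 23.4 FPKM on day 0, with 1 of them higher. Cd8a had 8.36 FPKM on day 3 and 0.353 FPKM on day 0, and Cd8b1 had 6.98 FPKM on day 3 and 4.11 FPKM on day 0. Of 10 measured markers of NK cells 1 was higher and 6 were lower (median -2.25). The list summed to 31.3 FPKM on day 3 and 60.6 FPKM on day 0. Its member Ncr1, an NK cell receptor gene, was listed at 0 on day 3 and had 6.28 FPKM on day 0. The part of such cells in the granzyme values was not tested.

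Cytokine receptors as a list had 6 of 27 measured genes higher (22.2%) and 5 lower (18.5%), with a median of -0.04. Over all measured genes 19.0% were higher and 8.84% lower, so the share of higher members was near that of all genes. Among the 6 higher were the receptors of interleukin 12 and the β chain for interleukin 2. Il2rb, the β chain shared by the interleukin 2 and 15 receptors, had 275 FPKM on day 3 and 20.3 FPKM on day 0 (3.76), and Il12rb1 and Il12rb2, the receptor for the type 1 polarizing cytokine interleukin 12, had 43.2 and 139 FPKM on day 3 and 2.20 and 7.46 FPKM on day 0. The γ chain Il2rg was alike at both times, at 129 FPKM on day 3 and 132 FPKM on day 0. Il7r, Il6ra and Il18r1 were lower. Il7r, through which naïve cells receive their survival signal, had 41.6 FPKM on day 3 and 119 FPKM on day 0 (-1.51). Il6ra had 6.03 FPKM on day 3 and 53.5 FPKM on day 0 (-3.13), and Il18r1 had 1.27 FPKM on day 3 and 17.3 FPKM on day 0 (-3.66). Cish and Socs2, feedback inhibitors that STAT5 is known to induce, had 65.4 and 24.6 FPKM on day 3, against 2.21 and 0.742 FPKM on day 0, and Socs1 had 33.9 FPKM on day 3 and 3.06 FPKM on day 0. In the list of JAK, STAT, SOCS and PIM genes 5 of 22 measured genes were higher (22.7%), also near the share of all genes, and none lower. Jak1 had 73.7 FPKM on day 3 and 154 FPKM on day 0 (-1.06).

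Among 30 measured transcription factors of helper lineages and effector cells, 14 were higher and 4 lower (median 1.45). Zbtb32, a repressor in activated lymphocytes, had 29.1 FPKM on day 3 and 0.269 FPKM on day 0 (6.31), and Batf3, a partner of JUN proteins, had 23.4 FPKM on day 3 and 0.454 FPKM on day 0 (5.41). Batf and Irf4, which bind composite sites together in activated T cells, had 169 and 124 FPKM on day 3 and 23.2 and 16.5 FPKM on day 0. Regulators of type 1 and type 2 helper cells were both higher, with Tbx21 (T-bet) at 48.1 FPKM on day 3 and 3.03 FPKM on day 0 (3.95) and Gata3 at 54.7 FPKM on day 3 and 16.1 FPKM on day 0 (1.75). Hif1a, the oxygen-regulated activator of glycolytic genes, had 305 FPKM on day 3 and 35.2 FPKM on day 0 (3.11). The lower members were Tox, with 3.33 FPKM on day 3 and 19.9 FPKM on day 0, Foxp3, the factor of regulatory T cells, with 1.12 FPKM on day 3 and 5.11 FPKM on day 0, Bcl6, the factor of follicular helper T cells, with 1.61 FPKM on day 3 and 6.70 FPKM on day 0, and Rora, with 0.751 FPKM on day 3 and 2.33 FPKM on day 0. Myc, the driver of growth in activated T cells, had 79.4 FPKM on day 3 and 15 FPKM on day 0 (2.40), while its partner Max was alike at 41.4 FPKM on day 3 and 36.1 FPKM on day 0, and Mxd4, an antagonist, had 4.64 FPKM on day 3 and 13.1 FPKM on day 0 (-1.48).

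The cell cycle lists are given in the order of the cycle, from the drivers of entry into S phase. Of 29 measured G1 cyclins, E2F factors and inhibitors of cyclin-dependent kinases, 19 were higher and 1 lower (median 2.31). Cyclin E, which starts replication, was encoded by Ccne1 at 34.7 FPKM on day 3 and 1.87 FPKM on day 0 (4.15) and by Ccne2 at 17.4 FPKM on day 3 and 1.40 FPKM on day 0 (3.55). Cdk4 and Cdk6, the kinases bound by D cyclins, had 144 and 65.5 FPKM on day 3 and 25.2 and 10.5 FPKM on day 0. D cyclins had smaller ratios. Ccnd2 had 125 FPKM on day 3 and 64.5 FPKM on day 0 (0.96), and Ccnd3 had 56.0 FPKM on day 3 and 26.4 FPKM on day 0 (1.08). E2f1, an activating factor, had 15.2 FPKM on day 3 and 1.66 FPKM on day 0 (3.12), and the repressors E2f7 and E2f8 had 7.07 and 18.7 FPKM on day 3 and 0.587 and 0.983 FPKM on day 0. Inhibitors differed among themselves. Cdkn1a, which encodes p21, had 23.6 FPKM on day 3 and 0.951 FPKM on day 0 (4.5), and Cdkn1b, which encodes p27 and marks resting T cells, had 16.7 FPKM on day 3 and 46.0 FPKM on day 0 (-1.46).

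Genes that copy DNA were next. All 57 measured replication genes had ratios above 0, and 47 were higher by the threshold (median 2.28), 37 with ratios centred on the median of all genes and 28 centred on the reference genes. The 6 subunits of the MCM helicase, which unwinds DNA at the fork, lay close together, from 81.4 FPKM for Mcm2 to 150 FPKM for Mcm6 on day 3 and from 10.4 FPKM for Mcm5 to 23.3 FPKM for Mcm6 on day 0. Loading and firing factors ranged widely. Cdt1, which loads the helicase, had 21.7 FPKM on day 3 and 7.11 FPKM on day 0 (1.60), a smaller ratio than that of any of the 6 subunits. Larger ratios than theirs were those of Mcm10 at 29.2 FPKM on day 3 and 0.988 FPKM on day 0 (4.75), Cdc45 at 61.5 FPKM on day 3 and 2.73 FPKM on day 0 (4.44) and Cdc6 at 21.7 FPKM on day 3 and 1.43 FPKM on day 0 (3.83). Uhrf1, which brings DNA methylation to newly copied DNA, had 113 FPKM on day 3 and 4.16 FPKM on day 0 (4.73). The smallest ratios belonged to the subunits 3, 4 and 5 of the origin recognition complex, with Orc3 at 19.1 FPKM on day 3 and 16.5 FPKM on day 0 (0.21), whereas Orc1 had 16.9 FPKM on day 3 and 0.773 FPKM on day 0 (4.28). Histones made for replication were higher still, with 59 of 60 measured genes higher and a median of 4.47, and their summed level was 22373 FPKM on day 3 and 1248 FPKM on day 0. Hist1h4d, a histone H4 gene, had 2869 FPKM on day 3 and 196 FPKM on day 0 (3.87). Many of these genes have near-identical copies, so the split of fragments between them is uncertain, and their messages end in a stem-loop and not in a poly(A) tail.

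Mitosis and the spindle gave 63 of 66 measured genes higher, none lower, and a median of 4.20. Ccnb1, the cyclin that drives entry into mitosis, had 67.5 FPKM on day 3 and 1.68 FPKM on day 0 (5.25), and its kinase Cdk1 had 49.2 FPKM on day 3 and 1.58 FPKM on day 0 (4.87). Aurkb and Birc5, parts of the chromosomal passenger complex, had 41.3 and 141 FPKM on day 3 and 1.0 and 4.13 FPKM on day 0. Plk1, a kinase of the spindle and centrosome, had 42.0 FPKM on day 3 and 1.33 FPKM on day 0 (4.88), and Cdc20, an activator of the anaphase-promoting complex, had 59.2 FPKM on day 3 and 2.22 FPKM on day 0 (4.68). Top2a, which untangles sister chromatids, reached 290 FPKM on day 3, against 13.2 FPKM on day 0 (4.45). The 3 members under the threshold were Cdc25b, Smc4 and Pttg1, and Smc4, a condensin subunit, had 200 FPKM on day 3 and was already at 167 FPKM on day 0. Of 24 measured kinesins 12 were higher, such as Kif11, which pushes spindle poles apart, at 74.9 FPKM on day 3 and 3.68 FPKM on day 0, and 2 were lower, of which Kif21b had 20.8 FPKM on day 3 and 106 FPKM on day 0.

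Promoters of a few genes are shown from the replication, mitosis and glycolysis lists, most of whose genes were higher. They were picked as examples that hold letters of known sites and do not stand for their lists. Where a gene had several promoter windows, the one with most matches is printed. The sites of E2F factors were searched as TTTCCCGC or TTTGGCGC, the cell cycle genes homology region (CHR), bound by the DREAM and MYB-MuvB complexes, as TTTGAA, and the E-box, bound by MYC, as CACGTG. Both strands of the RefSeq promoter windows of GRCm38.p6, 250 bases before to 50 after each start, were searched. The stretches below are the 150 bases before the RefSeq start, 5′ to 3′ on the strand of the gene, with these motifs, read on either strand, in capitals.
Mcm6 (helicase subunit, chr1:128359706-128359855, minus strand): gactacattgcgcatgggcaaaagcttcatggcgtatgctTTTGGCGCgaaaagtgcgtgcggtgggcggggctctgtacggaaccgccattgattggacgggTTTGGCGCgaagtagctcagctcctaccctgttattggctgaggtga
Gins3 (GINS complex of the replication fork, chr8:95633409-95633558, plus strand): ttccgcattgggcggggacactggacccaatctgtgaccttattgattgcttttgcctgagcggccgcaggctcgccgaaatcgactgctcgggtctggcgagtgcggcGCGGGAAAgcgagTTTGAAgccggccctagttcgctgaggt
Cdk1 (mitotic kinase, chr10:69352913-69353062, minus strand): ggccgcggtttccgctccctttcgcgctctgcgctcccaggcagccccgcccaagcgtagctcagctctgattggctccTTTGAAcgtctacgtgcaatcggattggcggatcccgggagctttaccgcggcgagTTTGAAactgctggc
Cdc20 (anaphase activator, chr4:118437344-118437493, minus strand): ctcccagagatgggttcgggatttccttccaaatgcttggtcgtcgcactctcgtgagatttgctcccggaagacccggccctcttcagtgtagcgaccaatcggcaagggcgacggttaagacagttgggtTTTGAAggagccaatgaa
Ube2c (ubiquitin-conjugating enzyme of anaphase, chr2:164769779-164769928, plus strand): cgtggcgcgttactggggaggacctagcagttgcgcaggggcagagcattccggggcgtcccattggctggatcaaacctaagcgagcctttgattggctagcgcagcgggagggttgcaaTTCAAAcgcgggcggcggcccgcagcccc
Ldha (lactate dehydrogenase A, chr7:46845654-46845803, plus strand): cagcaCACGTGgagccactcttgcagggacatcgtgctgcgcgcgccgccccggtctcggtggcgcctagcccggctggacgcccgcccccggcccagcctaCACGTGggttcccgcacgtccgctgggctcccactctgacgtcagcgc
In Cdk1 the CHR letters begin 71 and 15 bases before the start, in Cdc20 18 bases and in Ube2c 29 bases before it, and in Mcm6 the E2F letters begin 110 and 47 bases before it. The start of the gene in the deposited table was the same base as that of RefSeq in each of these but Mcm6, where it lay 49 bases downstream.

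Over the lists, CHR letters were found in 38 of the 54 promoters of mitosis genes that were matched (70.4%), against 20.2% of all 27025 genes of the promoter table and 14.4% of the 8434 measured genes that were matched. Of 45 replication genes 9 held CHR letters. E2F letters showed the other pattern, with 15 of 45 replication genes (33.3%), 4 of 54 mitosis genes (7.41%), 1.80% of all genes and 3.52% of measured genes. E-box letters were in 11 of 46 promoters of ribosome biogenesis genes (23.9%) and in 6 of 27 of glycolysis genes (22.2%). They were in 8.09% of all genes and in 11.9% of measured genes. Over the lists searched, the E-box share ran from 5.56% in mitosis genes to 26.7% in cytosolic aminoacyl-tRNA synthetases. The histone genes had no match in the promoter table. By call, CHR letters were in 18.1% of genes higher on day 3 and 15.2% of lower ones, E2F letters in 5.94% of higher and 1.14% of lower ones, and E-box letters in 11.5% of higher, 10.7% of lower and 12.2% of the genes between. A match of letters is a description of the window and not a bound site.

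Of 28 measured genes of glycolysis and lactate handling, 19 were higher and 1 lower (median 2.11), against 15 and 3 centred on the median of all genes and 11 and 5 centred on the reference genes, and the summed level of the list was 7336 FPKM on day 3, against 808 FPKM on day 0. Uptake and the first step were at modest levels. The glucose transporter Slc2a1 had 43.8 FPKM on day 3 and 15.8 FPKM on day 0 (1.47), and Hk2, the inducible hexokinase, had 48.9 FPKM on day 3 and 1.48 FPKM on day 0 (4.95). The later steps of the pathway carried the highest levels. Aldoa had 819 FPKM on day 3 and 71.8 FPKM on day 0 (3.51). Tpi1 had 457 FPKM on day 3 and 16.5 FPKM on day 0 (4.78). These enzymes split and interconvert sugar phosphates, and the next ones yield ATP, NADH and pyruvate. Gapdh had 1313 FPKM on day 3 and 118 FPKM on day 0 (3.47). Pgk1 had 674 FPKM on day 3 and 32.5 FPKM on day 0 (4.37). Eno1 had 937 FPKM on day 3 and 103 FPKM on day 0 (3.19). Pkm had 1229 FPKM on day 3 and 133 FPKM on day 0 (3.21). Lactate dehydrogenase split by isoform, with Ldha at 996 FPKM on day 3 and 97.7 FPKM on day 0 (3.35) and Ldhb at 13.5 FPKM on day 3 and 11.5 FPKM on day 0 (0.23). Slc16a3, the exporter of lactate, had 49.6 FPKM on day 3 and 1.28 FPKM on day 0 (5.17). Pdk1 and Pdk2, kinases that inhibit pyruvate dehydrogenase, had 16.5 and 0.113 FPKM on day 3 and 38.7 and 1.46 FPKM on day 0. Genes known to respond to low oxygen were higher in 10 of 15 cases (median 1.75), among them Egln3, an oxygen-sensing hydroxylase, at 28.3 FPKM on day 3 and 0.823 FPKM on day 0.

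**Figure D4:**
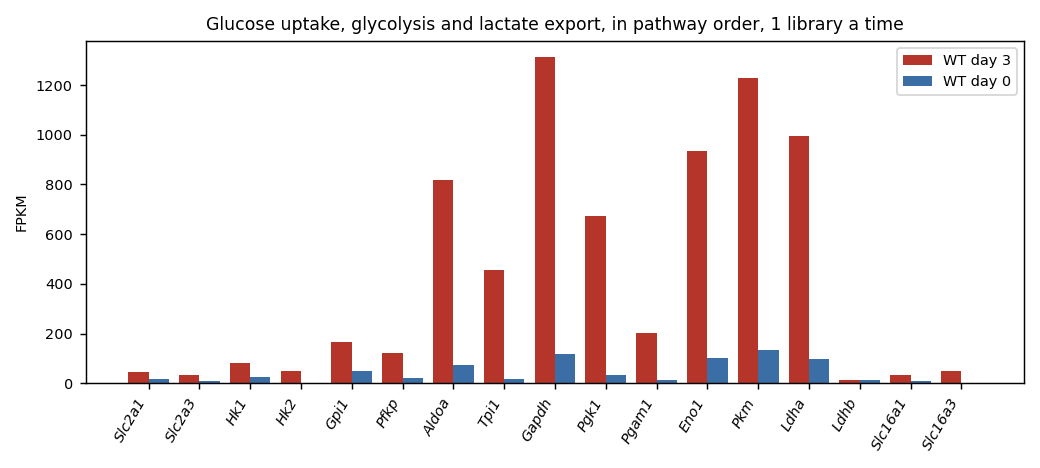
FPKM of genes of glucose uptake, glycolysis and lactate export in pathway order, with WT day 3 (left bar) and WT day 0 (right bar) of 1 library each. Levels on day 3 are largest from Aldoa to Ldha, with Gapdh at 1313 FPKM against 118 FPKM on day 0, and Ldhb is alike at both times.

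Of 32 genes of pyruvate, the TCA cycle and glutamine 12 were higher (median 1.03), of 44 of complex I 18 (median 1.36), of 41 of complexes III to V 25 (median 1.69), and of 77 mitochondrial ribosomal protein genes 45 (median 1.56), with none lower in any of these lists. Centred on the median of all genes, the numbers higher were 6, 9, 13 and 18 in the same order of lists, and centred on the reference genes they were 1, 3, 3 and 3, with 1 gene lower in the first list and 1 in complexes III to V. Cycs, which encodes cytochrome c, had 104 FPKM on day 3 and 15.9 FPKM on day 0 (2.70). Atp5b, of the ATP synthase, had 558 FPKM on day 3 and 117 FPKM on day 0 (2.25). Idh2, the mitochondrial isocitrate dehydrogenase that uses NADP, had 17.1 FPKM on day 3 and 26.5 FPKM on day 0 (-0.62).

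Enzymes that make building blocks for nucleic acids and membranes are given next. Of 15 measured genes of serine, folate and methyl-group synthesis 10 were higher (median 2.21), such as Psat1 and Phgdh, which make serine from a glycolytic intermediate, at 121 and 115 FPKM on day 3 and 7.4 and 14.3 FPKM on day 0. Mthfd2, the mitochondrial folate enzyme, had 60.5 FPKM on day 3 and 7.18 FPKM on day 0 (3.06). Of 32 genes of purine and pyrimidine synthesis 21 were higher (median 1.76), 14 centred on the median of all genes and 6 centred on the reference genes. Rrm2, the S-phase subunit of ribonucleotide reductase, led them with 111 FPKM on day 3 and 3.91 FPKM on day 0 (4.79), while Rrm2b, the subunit of resting cells, had 6.38 FPKM on day 3 and 8.24 FPKM on day 0. In cholesterol synthesis 17 of 26 genes were higher and 2 lower (median 1.88), and 13 and 9 were higher on those scales. The 2 lower genes were the cholesterol exporters Abca1, at 1.12 FPKM on day 3 and 5.76 FPKM on day 0, and Abcg1, at 3.37 FPKM on day 3 and 15.5 FPKM on day 0. Of 23 fatty acid genes 8 were higher (4 centred on the reference genes), desaturases among them. Fads2 had 41.8 FPKM on day 3 and 0.568 FPKM on day 0 (5.97). Scd2 had 211 FPKM on day 3 and 7.18 FPKM on day 0 (4.86), whereas Cpt1a, the gate of fatty acid oxidation, had 7.47 FPKM on day 3 and 18.3 FPKM on day 0 (-1.28). Of the amino acid transporters 3 of 14 were higher (21.4%), near the 19.0% of all measured genes. Slc7a5, which carries leucine, had 48.2 FPKM on day 3 and 5.41 FPKM on day 0 (3.13).

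Counts for the machinery of protein synthesis depended on the scale, and are given as deposited, then centred on the median of all genes, then on the reference genes. All 23 cytosolic aminoacyl-tRNA synthetases and their scaffold genes had ratios between 1.38 and 2.71, and 17, 15 and 2 passed the threshold (median 2.06 as deposited). Of 54 genes of ribosome biogenesis 23, 13 and 3 were higher, with 1 lower on the last scale (median 1.39 as deposited), such as Npm1, a nucleolar chaperone, at 2109 FPKM on day 3 and 453 FPKM on day 0 (2.22). Ncl, which encodes nucleolin, had 311 FPKM on day 3 and 70.0 FPKM on day 0 (2.15). Nop56 was the only member with a ratio below 0, with 2491 FPKM on day 3 and 5034 FPKM on day 0 (-1.02), and its locus overlaps another named locus, so that the fragments cannot be assigned to it with certainty. The 83 measured cytosolic ribosomal protein genes had a median of 0.50, near that of all genes, with 5 higher and none lower, and the sign of that median turned with ratios centred on reference genes (-0.41). Among 35 translation factors 19, 9 and 2 were higher, and 1 was lower on each scale. Eif4a1, the helicase of the cap-binding complex, had 616 FPKM on day 3 and 167 FPKM on day 0 (1.88), and its paralog Eif4a2 had 383 FPKM on day 3 and 1227 FPKM on day 0 (-1.68). Of 40 chaperones 31, 25 and 12 were higher and 1 was lower on each scale (median 2.11 as deposited), with Hsp90ab1 at 1368 FPKM on day 3 and 262 FPKM on day 0 (2.39) and Hspd1, of the mitochondrial folding chamber, at 402 FPKM on day 3 and 44.0 FPKM on day 0 (3.19). All 41 proteasome subunits had ratios above 0 as deposited (median 1.84), and 33, 17 and 4 were higher.

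Of 34 measured regulators of resting and naïve T cells 14 were lower and 1 higher, with 31 below 0 and a median of -1.26. With ratios centred on the median of all genes 21 were lower, and centred on the reference genes 25. Klf2, which maintains quiescence and the genes of recirculation (chr8:72319062-72321654), had 5.87 FPKM on day 3, against 131 FPKM on day 0 (-4.46). Tcf7 and Lef1, factors of naïve and memory T cells, had 22.3 and 34.6 FPKM on day 3 and 182 and 159 FPKM on day 0. Btg1, an antiproliferative gene, had 35.1 FPKM on day 3 and 265 FPKM on day 0 (-2.91). Pik3ip1, which inhibits PI3 kinase, had 1.77 FPKM on day 3 and 28.8 FPKM on day 0 (-3.95), and Tsc22d3, the glucocorticoid-induced leucine zipper, had 5.84 FPKM on day 3 and 95.3 FPKM on day 0 (-4.00). Foxo1, an activator of Klf2 and Il7r, had 14.1 FPKM on day 3 and 47.6 FPKM on day 0 (-1.74). Satb1, a chromatin organizer, had 450 FPKM on day 3 and 241 FPKM on day 0, and the higher member was Gfi1, a repressor induced on activation, at 38.2 FPKM on day 3 and 3.69 FPKM on day 0 (3.34).

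Receptors and adhesion molecules of homing differed in both directions, with 5 of 21 measured genes higher (23.8%) and 9 lower (42.9%), and a median of -1.08. Over all measured genes the shares were 19.0% and 8.84%. S1pr1, the receptor by which T cells leave lymphoid organs, had 8.16 FPKM on day 3 and 167 FPKM on day 0 (-4.34). Itga4 and Itgb7, which together form a gut homing integrin, had 8.60 and 25.1 FPKM on day 3 and 78.1 and 90.8 FPKM on day 0. Ccr7, the receptor for entry into lymph nodes, had 43.7 FPKM on day 3 and 92.4 FPKM on day 0 (-1.08). Higher were Ccr8, at 52.4 FPKM on day 3 and 0.890 FPKM on day 0 (5.73), and Ccr4, at 42.7 FPKM on day 3 and 1.48 FPKM on day 0 (4.76), both known from type 2 and regulatory T cells. All 17 measured genes of the TGF-beta pathway had ratios below 0, and 5 were lower (median -1.08), 8 centred on the median of all genes and 13 centred on the reference genes. Smad7, the inhibitory SMAD, had 8.70 FPKM on day 3 and 64.7 FPKM on day 0 (-2.88), and Tgfbr2, the receptor that binds the ligand, had 16.4 FPKM on day 3 and 67.4 FPKM on day 0 (-2.04). Tgfb1, a ligand that was counted with the secreted cytokines, was higher, with 71.4 FPKM on day 3 and 22.9 FPKM on day 0 (1.63).

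The receptor that received the stimulus kept close to its day 0 level in most subunits. Of 37 genes of the TCR complex and its proximal signalling none was higher and 7 were lower (18.9%, median -0.16), 12 centred on the reference genes. Over all measured genes 19.0% were higher and 8.84% lower. Cd3g had 237 FPKM on day 3 and 217 FPKM on day 0, Cd247, the ζ chain, 145 FPKM on day 3 and 127 FPKM on day 0, Lck 147 FPKM on day 3 and 165 FPKM on day 0, and Zap70 65.6 FPKM on day 3 and 39.1 FPKM on day 0. The lower members were mostly adaptors and modulators. Txk, a TEC kinase of resting T cells, had 4.59 FPKM on day 3 and 40.3 FPKM on day 0 (-3.11), and Skap1, an adhesion adaptor, had 41.1 FPKM on day 3 and 145 FPKM on day 0 (-1.81). Brakes of the receptor had 3 of 22 higher (13.6%) and 4 lower (18.2%) as deposited. Centred on the median of all genes 0 were higher and 4 lower, and centred on the reference genes 0 and 6. Dtx1, a NOTCH target linked to anergy, had 0.539 FPKM on day 3 and 32.5 FPKM on day 0 (-5.67), and Dgka, a kinase that removes diacylglycerol, had 61.5 FPKM on day 3 and 270 FPKM on day 0 (-2.13).

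Immediate early genes, which many stimuli induce within minutes and for a short time, had ratios below 0 in 18 of 23 measured cases (median -0.99), and 8 were lower and 1 higher. Fos, a partner of JUN in the AP-1 dimer (chr12:85473901-85477415), had 3.12 FPKM on day 3, against 218 FPKM on day 0 (-6.08), Fosb had 0.259 FPKM on day 3 and 55.5 FPKM on day 0 (-7.28), and Jun had 11.7 FPKM on day 3 and 67.9 FPKM on day 0 (-2.52). Dusp1, a phosphatase of MAP kinases, had 4.74 FPKM on day 3 and 88.1 FPKM on day 0 (-4.19). The EGR family was split, with Egr2 at 16.8 FPKM on day 3 and 3.56 FPKM on day 0 (2.21), Egr3 at 11.7 FPKM on day 3 and 4.19 FPKM on day 0 (1.45) and Egr1 at 11.2 FPKM on day 3 and 23.1 FPKM on day 0 (-1.03). The receptor-responsive Nr4a1 had 20.7 FPKM on day 3 and 63.6 FPKM on day 0 (-1.62). In the list of NF-kappaB subunits and inhibitors 2 of 18 were higher and 2 lower (11.1% each, median -0.23), against 19.0% and 8.84% of all measured genes. The lower ones were Tnfaip3 and Nfkbiz. Tnfaip3, which encodes A20, had 20.8 FPKM on day 3 and 251 FPKM on day 0 (-3.59), and Nfkbiz had 9.16 FPKM on day 3 and 49.1 FPKM on day 0 (-2.41), and the inhibitor gene Nfkbia had 74.3 FPKM on day 3 and 97.2 FPKM on day 0 (-0.39). The higher ones were Bcl3, an atypical inhibitor, with 20.3 FPKM on day 3 and 4.5 FPKM on day 0 (2.15), and the subunit gene Nfkb2, and Nfkb1 and Nfkb2 had 124 and 48.7 FPKM on day 3 and 45.1 and 14.5 FPKM on day 0. Zfp36, the RNA-binding protein tristetraprolin that destabilizes such messages, was lower too, at 7.99 FPKM on day 3 and 71.2 FPKM on day 0 (-3.14).

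Genes of genome integrity and of cell death also differed. Of 31 measured DNA damage and p53 response genes 19 were higher and 1 lower (median 2.24). Trp53, which encodes p53, had 20.6 FPKM on day 3 and 14.6 FPKM on day 0 (0.49) and its inhibitor Mdm2 had 40.8 FPKM on day 3 and 39.5 FPKM on day 0 (0.05). In the BCL2 family the protective Bcl2a1d had 28.3 FPKM on day 3 and 2.18 FPKM on day 0 (3.64) and Bcl2l1, BCL-XL, had 30.1 FPKM on day 3 and 5.60 FPKM on day 0 (2.41), and the killers Bax and Bak1 had 85.6 and 36.9 FPKM on day 3 and 20.4 and 7.0 FPKM on day 0. Bcl2 had 72.1 FPKM on day 3 and 48.5 FPKM on day 0 (0.57), and Bmf, a BH3-only protein, was the lower member at 0.861 FPKM on day 3 and 5.60 FPKM on day 0 (-2.57). The Bcl2a1 copies are near-identical, so their separate values are uncertain. Chromatin enzymes were higher in 16 of 47 cases and lower in 3 as deposited (median 0.93). Centred on the median of all genes 13 were higher and 5 lower, and centred on the reference genes 8 and 6 (median 0.02). Ezh2, the methyltransferase of Polycomb, had 111 FPKM on day 3 and 13.9 FPKM on day 0 (2.99), and its paralog Ezh1 had 5.49 FPKM on day 3 and 17.9 FPKM on day 0 (-1.68). Of 41 interferon-stimulated genes 9 were higher (22%) and 3 lower (7.32%), near the 19.0% and 8.84% of all measured genes, and their median of 0.55 turned to -0.35 centred on the reference genes. The largest ratios were those of GTPases known to respond to interferon γ. Gbp2 had 381 FPKM on day 3 and 27.2 FPKM on day 0 (3.80), and Iigp1 had 118 FPKM on day 3 and 9.03 FPKM on day 0 (3.70). Oas2, which makes an activator of RNase L, had 2.60 FPKM on day 3 and 12.4 FPKM on day 0 (-2.21).

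Ranked by ratio over all names that reached 5 FPKM at either time, the top 20 held 11 names of small nucleolar, Cajal body or micro RNA listed at 0 on day 0 and 7 of the bottom 10 were such names listed at 0 on day 3. These RNAs are short, and all but 2 of these 18 loci overlap another named locus. Of 135 measured small RNA genes 29 were higher and 31 lower, and 26 were at 0 at either time. Among the other genes of the top ranks, Penk, which encodes the opioid precursor proenkephalin, had 75.9 FPKM on day 3 and 0.264 FPKM on day 0 (7.70). Rn45s, the ribosomal RNA precursor, was listed at 0 on day 3 and had 2387 FPKM on day 0. At the other end C1qa, C1qb and C1qc, the complement subunits made by macrophages, were listed at 0 on day 3 and had 29.0, 27.8 and 25.5 FPKM on day 0, and the red cell locus Hbb-b1,Hbb-bs had 2.04 FPKM on day 3 and 311 FPKM on day 0. Names that hold a small RNA, and Rn45s, were left out of the ranking by difference in FPKM. By gain, that ranking was led by Tomm70a, with 120498 FPKM on day 3 and 18767 FPKM on day 0, on a locus that overlaps another named one. Lars2, the mitochondrial leucyl-tRNA synthetase, came next, with 7271 FPKM on day 3 and 108 FPKM on day 0 (6.07). The 23 cytosolic synthetase and scaffold genes together had 1614 FPKM on day 3 and 425 FPKM on day 0. Whether the fragments at Lars2 came from its message was not tested. In the same ranking, the largest losses other than Nop56 were those of the nuclear RNA Malat1 and of Snx5, a sorting nexin. Malat1 had 1101 FPKM on day 3 and 2815 FPKM on day 0 (-1.35), and Snx5 had 497 FPKM on day 3 and 1977 FPKM on day 0 (-1.99).

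The cKO pair is no replicate of WT, but it shares no library with it and shows which WT ratios recurred. Cic, the targeted gene, had 17.8 FPKM on day 3 and 25.4 FPKM on day 0 in WT, against 12.2 FPKM on day 3 and 24.9 FPKM on day 0 in cKO, and a sum over the gene need not show the deleted exons. Of 11231 genes measured there, 17.3% were higher on day 3 and 6.96% lower. Of the genes measured in both genotypes, 2075 were higher in WT, and 1673 of these (80.6%) were higher in cKO, which is 88.0% of the genes higher in cKO. Of the 849 that were lower in WT, 610 (71.8%) were lower in cKO, which is 83.9% of the genes lower there. The ratio of Il2ra was 6.75 in WT and 6.13 in cKO, that of Ccnb1 5.25 in WT and 6.22 in cKO, that of Fos -6.08 in WT and -5.68 in cKO, and that of Klf2 -4.46 in WT and -3.21 in cKO. List medians were within 0.5 of each other for 61 of 70 lists. The largest gap was in secreted cytokines, with a median of 3.39 in WT and 1.92 in cKO, followed by cytotoxic granule genes, with 2.26 in WT and 0.91 in cKO. On day 3, Gzmb had 2712 FPKM in WT and 873 FPKM in cKO, and Il13 had 63.9 FPKM in WT and 19.7 FPKM in cKO. Whether the genotypes differ in these lists was not tested, since each value rests on 1 library. Lrfn1, chosen after its values were seen, had 64.4 FPKM on day 3 and 0.823 FPKM on day 0 in WT, against 59.4 FPKM on day 3 and 103 FPKM on day 0 in cKO.

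**Figure D5:**
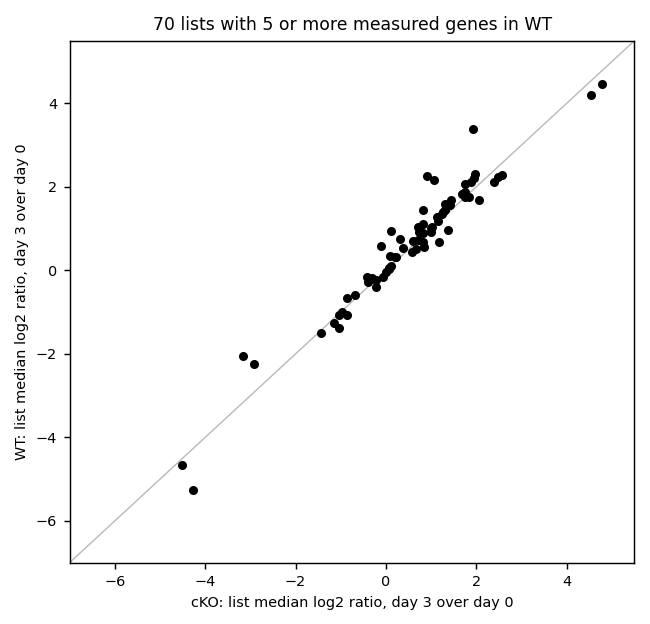
Median log2 ratio of day 3 to day 0 in WT (vertical axis) and in cKO (horizontal axis) for the 70 lists with at least 5 measured genes in WT (points), with the line of equal medians. Most lists lie near the line, and the secreted cytokine list lies above it at 3.39 in WT and 1.92 in cKO.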

How the data were processed

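RNA was taken from sorted splenic CD4+ T cells and sequenced on an Illumina instrument, in 1 library for each genotype and time. Per the labels, the authors mapped reads with TopHat2 2.0.10 to mm9, and estimated FPKM and compared libraries with Cufflinks 2.1.1, and the deposited FPKM values are normalized to transcript length and library size. The gene positions shared an end with GRCm38.p6 for 58.1% of 21286 genes and with NCBIM37, the assembly of mm9, for 1.13% of 19909, so coordinates are given as GRCm38. Strand was not stated to be used in counting, and overlapping or near-identical genes may share fragments.

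From the 2 FPKM columns of the WT table, and of the cKO table beside it, log2 ratios were taken with a pseudocount of 0.1 FPKM for names with 1 FPKM or more in either library, with Python 3.11.15, pandas 2.3.3 and numpy 2.4.6. A threshold of 1.5 on the log2 ratio, that of the study's methods, replaced a test. Names on several loci were given by the locus with the higher mean FPKM. The authors' fold changes, P and q values, and 16 tables of functional annotation were not used. A pair of further tables, whose headers name a genotype contrast, held the authors' weighted means of libraries and gave an alternative scale only.

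The 58 gene lists and 15 lists of cell type markers were chosen with earlier results of these data known. Genes were named if they were anchors of a list, among the 6 largest ratios of the other members, among the 20 highest or lowest ratios, or among the 15 largest differences or levels in FPKM. Differences and levels were ranked without Rn45s and names that hold a small RNA. Others named in the text were chosen after their values were seen. Promoters came from the RefSeq table of GRCm38.p6. Another pseudocount, minimum, threshold, centring and handling of small, overlapping, unnamed and zero loci were tried. A few results that need items withheld for evaluation are not reported here.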

Additional observations from a re-analysis of the deposited data

Results flagged for a closer look

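By the size threshold, 4 loci lay on opposite sides in WT and cKO, and with 1 library each the difference was not tested. Snord55 was listed at 0 on day 3 and had 202 FPKM on day 0 in WT (log2 ratio -10.98), against 641 FPKM on day 3 and a listed 0 on day 0 in cKO. Snord65 had 2236 FPKM on day 3 and a listed 0 on day 0 in WT (log2 ratio 14.45), against a listed 0 on day 3 and 2267 FPKM on day 0 in cKO. The locus Mir1940,Snora47 had 7.94 FPKM on day 3 and a listed 0 on day 0 in WT (log2 ratio 6.33), against a listed 0 on day 3 and 8.97 FPKM on day 0 in cKO. A ratio against a listed 0 depends on the pseudocount and is no fold. The locus 5730408K05Rik,Mir5136 had 38.2 FPKM on day 3 and 176 FPKM on day 0 in WT (-2.20), against 161 FPKM on day 3 and 15 FPKM on day 0 in cKO (3.42). All 4 loci hold names of small RNA.

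Among the loci without a name, which no list uses, a single locus of 25 bases held 85.4% of all FPKM on day 3. It was listed at 0 on day 0. FPKM divides by length, so for so short a locus this is not its share of the fragments, which was not measured. Without it, unnamed loci held 5.02% of the FPKM on day 3 and 4.39% on day 0.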

How the results depend on the processing

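In the scale as deposited 2173 genes were higher and 1011 lower on day 3, and 68.2% of these calls were higher. With a pseudocount of 1 FPKM, 557 genes were lower, and 336 in both genotypes. With a minimum of 5 FPKM, 520 were lower, and 330 in both. With no minimum 1620 were lower. Centred on the median of all genes, 1436 were higher and 1444 lower (49.9% higher), with 1111 higher and 934 lower in both genotypes. Centred on the reference genes, 877 were higher and 2357 lower (27.1% higher), with 687 and 1573 in both. At a threshold of 1, 3491 were higher and 1578 lower, with 2814 and 1068 in both, and at 2, 1303 were higher, with 975 higher and 365 lower in both. With unnamed loci included, 4459 were lower (39.2% of calls higher), and 3240 in both. A minimum of 5 FPKM, no minimum and unnamed loci change by construction which loci enter (8594, 16239 and 17743), while 11440 enter under the pseudocount, centring and threshold alternatives, and the cause of the shifts was not tested further. The median of the 3 measured plasma cell markers was 2.28 and turned to -1.53 when loci listed at 0 were left out, since fewer genes remain. Leaving out the 113 markers of other cells gave 2162 higher and 960 lower genes, and the scale implied by the pooled tables gave 2299 and 955, and both of these alternatives were chosen after seeing the data. Of 692 named genes 442 kept their side of the threshold under each of the 15 alternatives that gave them a value. Changes of sign were counted only for genes past the threshold of 1.5, and there were 0. Centring moved ratios by at most 0.90 and could not turn such a sign, so this count is no sign of robustness.

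No paired analysis was possible because each group has 1 library. No replicate could be left out for the same reason. Depth limits low values: 3 fragments in a transcript of 2 kb come to 0.17 FPKM on day 3 and 0.20 FPKM on day 0.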
